A study of Mus musculus with 6 samples.

Results

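Intermediate filaments, the rope-like filaments of the cytoskeleton, were followed through the genes that encode their neuronal and glial subunits. The genes were Nefl, Nefm, Nefh, Ina, Prph, Gfap, Vim, Nes, Synm and Des. Every probe set whose platform annotation names exactly 1 gene, and that gene one of the 10, was taken. This gave 24 of the 45101 probe sets on the array, and 10 of the 18193 genes that were named and tested. Nefm and Nefh have 1 probe set each, Nefl, Synm and Des have 2, Ina, Gfap, Vim and Nes have 3, and Prph has 4.

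The tissues were lumbar dorsal root ganglia (DRG), where the bodies of sensory neurons lie, and lumbar spinal cord (SC), each hybridised to 3 arrays. All mice were male C57BL/6J animals aged 3 months, with no treatment or engineered allele named in the labels. Each array carried a pool of 4 mice, with left and right lumbar levels 1 to 6 combined, and the labels describe the pools as independent. The comparison addresses which genes differ in RNA level between the 2 tissues.

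Intermediate filaments are assembled from rod-shaped subunits that pair into coiled coils. Neurofilaments of mature axons are built from the light, medium and heavy subunits (Nefl, Nefm, Nefh) together with alpha-internexin (Ina) in central neurons or peripherin (Prph) in many peripheral ones. Astrocytes are known for glial fibrillary acidic protein (Gfap), mesenchymal cells and several glia for vimentin (Vim), progenitors for nestin (Nes), and muscle for desmin (Des), while synemin (Synm) joins filaments made by other subunits.

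The DNA just upstream of the genes is shown for the 5 members with the largest differences between the tissues, of which Prph, Vim and Synm were higher in DRG and Gfap and Ina were higher in SC. The sequences are RefSeq's for mouse assembly GRCm38.p6, in which 7 of the 10 members were matched by symbol. Each is the 110 bases before the annotated start, 5′ to 3′ on the gene's own strand. Capitals mark the letters TATAAA, known as a core promoter element, as well as CCAAT, and also GGGCGG, known as a GC box. Both strands were searched, so ATTGG is a reverse match of the second motif, whereas CCGCCC is one of the third.
Prph, chr15:99055064-99055173, plus strand: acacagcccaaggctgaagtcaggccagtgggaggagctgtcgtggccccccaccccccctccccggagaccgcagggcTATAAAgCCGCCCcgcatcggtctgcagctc
Vim, chr2:13574201-13574310, plus strand: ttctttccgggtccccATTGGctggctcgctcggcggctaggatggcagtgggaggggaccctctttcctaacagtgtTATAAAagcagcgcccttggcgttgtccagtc
Synm, chr7:67759743-67759852, minus strand: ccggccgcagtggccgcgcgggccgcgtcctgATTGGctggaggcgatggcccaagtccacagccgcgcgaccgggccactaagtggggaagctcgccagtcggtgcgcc
Ina, chr19:47014571-47014680, plus strand: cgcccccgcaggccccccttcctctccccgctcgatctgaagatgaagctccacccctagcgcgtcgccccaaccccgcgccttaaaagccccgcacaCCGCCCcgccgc
Gfap, chr11:102897201-102897310, minus strand: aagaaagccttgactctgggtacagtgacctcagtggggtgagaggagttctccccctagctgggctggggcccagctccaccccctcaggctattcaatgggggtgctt

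Prph and Vim both held TATAAA, starting 31 and 32 bases before the start. Over the full 250 bases before the start, TATAAA was present in 12.4% of 32851 mouse promoters, CCAAT in 33.8% and GGGCGG in 32.7%. Vim and Synm held a CCAAT match, nearest at 94 and 78 bases, and Ina and Prph held a GC box, nearest at 12 and 24 bases. The 250 bases of Gfap held none of these 3 sets of letters. A match describes the letters in this window and says nothing on whether a factor binds.

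Values are MAS5 signals recovered from the deposited ratios, with the array scaling of the deposited table kept, and have no unit. Differences are DRG minus SC on log2(signal + 16), which understates the change of dim probe sets, and were tested with limma, with Benjamini-Hochberg adjustment over 45032 probe sets and a threshold of 0.05. The number of arrays limits the precision. Pearson correlations of log2 values were 0.966 to 0.970 among DRG arrays, 0.966 to 0.969 among SC arrays and 0.891 to 0.897 between tissues, and no array stood apart. A level for genes not expected in these tissues, the 95th percentile of 57 such probe sets on each array, lay between 121 and 227, and "above background" means above it. All 7 measured genes of small sensory neurons were higher in DRG, and all 8 astrocyte genes were higher in SC. Genes of motor neurons and of spinal interneurons went both ways. The lists were chosen with earlier results of these data known, so these counts are no independent check of the tissue labels. In these bulk samples, fewer cells of a type and less RNA per cell cannot be told apart.

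By its brightest probe set, each of 6 member genes was higher in DRG (Nefl, Nefm, Nefh, Prph, Vim, Synm), 2 were higher in SC (Ina, Gfap), and 2 did not pass the test (Nes, Des). Over all 18193 genes, 31.8% were higher in DRG and 9.7% were higher in SC. The arrays of the 2 tissues did not overlap for 8 of the 10 members, against 51.7% of all genes. The median difference was 0.57 over the members and 0.18 over all genes. Over single probe sets, 11 of 24 were higher in DRG, 7 were higher in SC and 6 were not called, beside 22.7% and 9.79% of all probe sets. The tissues did not overlap in 18 of the 24, against 43.6% of all probe sets. The members, like the lists, were chosen with earlier results of these data known, so an excess over these shares is no independent result.

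**Figure D1:**
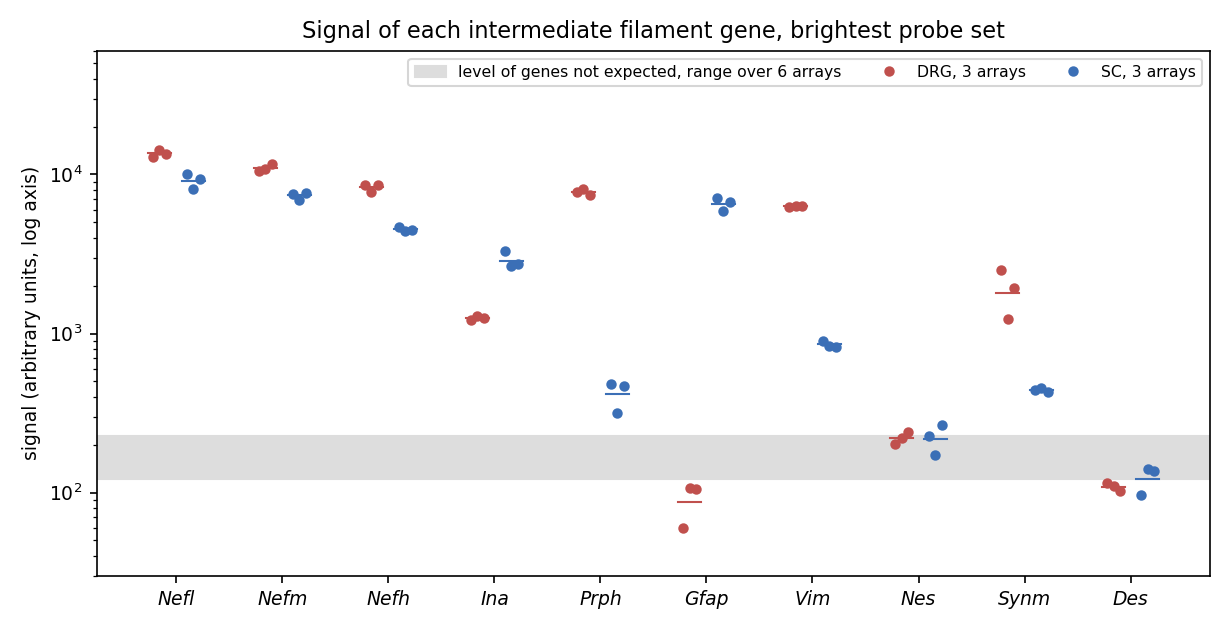
Signal of the brightest probe set of each member on each array, in arbitrary units on a log axis, with points for the 3 DRG (red) and 3 SC (blue) arrays, lines at the means of log values, and a grey band for the background level from 121 to 227. The tissues are separated for 8 members and overlap for Nes and Des.

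The neurofilament triplet was higher in DRG. Nefl, the light subunit on which the polymer is built, had signals of 12964, 14326 and 13545 in DRG and 10093, 8128 and 9339 in SC (probe set 1426255_at). Each DRG array stood above each SC array. The means were 13611 ± 683 and 9187 ± 991 (SD, n = 3 arrays each), a log2 difference of 0.57 (SE 0.10, 95% interval 0.35 to 0.80, limma adjusted p = 0.00158), or 1.49-fold.

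Nefm, the medium subunit, had signals of 10472, 10859 and 11644 in DRG and 7593, 6938 and 7691 in SC (1422520_at). Here too the tissues did not overlap. The log2 difference was 0.57 (SE 0.08, 95% interval 0.38 to 0.76, limma adjusted p = 0.000531), or 1.48-fold. Nefl and Nefm are neighbours in the mouse genome, with 0 protein-coding genes between them in the RefSeq annotation.

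Nefh, the heavy subunit with the long phosphorylated tail, had signals of 8545, 7743 and 8615 in DRG and 4682, 4416 and 4466 in SC (1424847_at). The lowest DRG array was well above the highest SC array. The means were 8301 ± 485 and 4521 ± 142 (SD, n = 3 each), a log2 difference of 0.87 (SE 0.08, 95% interval 0.70 to 1.05, limma adjusted p = 1.91e-05), or 1.83-fold.

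The size of the triplet's difference depended on the array scaling. After quantile normalization 5 members passed toward DRG and 2 toward SC, beside 20.5% and 16% of all genes, and before the authors' scaling 4 passed toward DRG and 2 toward SC, beside 19.3% and 19.7%. The deposited scaling left the median difference of probe sets above the median signal at 0.25, quantile normalization put it at 0.00, and signals before the authors' scaling put it at -0.10. Signals before the authors' scaling already had nearly equal means on every array, 247.3 to 247.5 with extreme values trimmed, so they are not unscaled. Nefl was 0.25 higher in DRG after quantile normalization (limma adjusted p = 0.00659) and 0.20 before the authors' scaling (adjusted p = 0.158). Nefm was 0.11 (adjusted p = 0.274) and 0.20 (adjusted p = 0.083), and neither passed the test. Nefh stayed past the threshold in both, at 0.34 (adjusted p = 0.00313) and 0.50 (adjusted p = 0.00027). The second probe set of Nefl, 1454672_at, was 0.34 higher in DRG under the deposited scaling (adjusted p = 0.0107), and its direction turned under both others, to -0.15 (adjusted p = 0.0698) and -0.03 (adjusted p = 0.796).

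**Figure D2:**
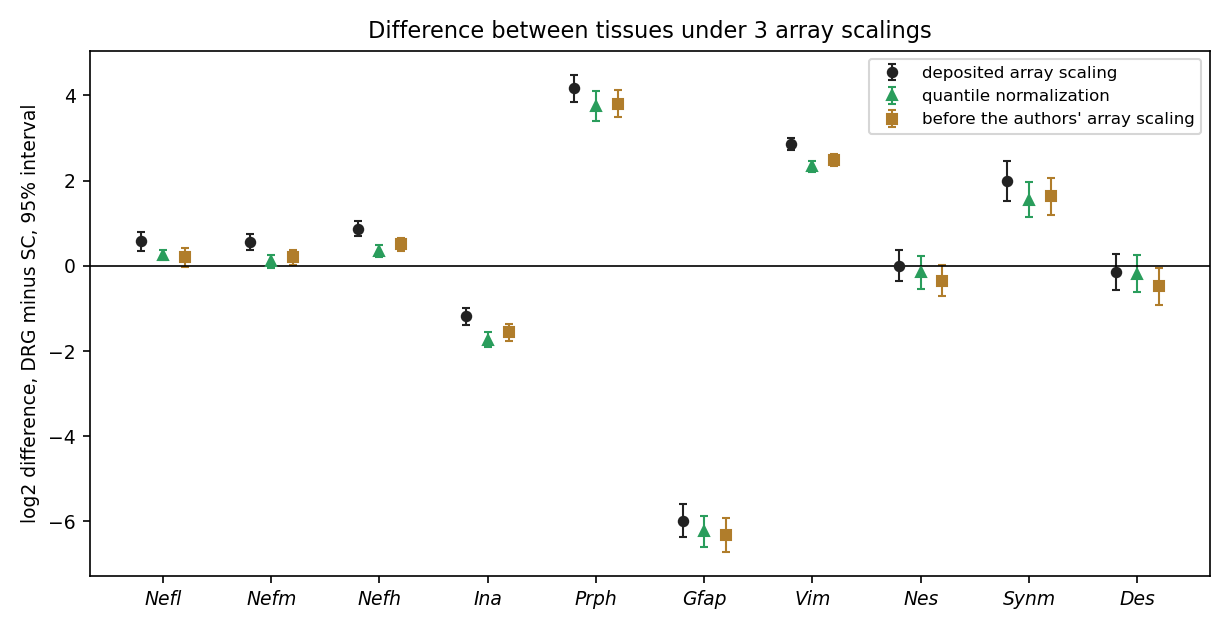
Log2 difference DRG minus SC of the brightest probe set of each member under 3 array scalings, with 95% intervals. Nefm moves from 0.57 to 0.11 and 0.20, while Prph, Vim, Synm, Ina and Gfap keep direction and call under all 3.

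Genes shared by neurons of both tissues were set beside the triplet. In that list of 10, 6 passed toward DRG and 0 toward SC (median difference 1.08), led by Tubb3 (2.35), Elavl4 (1.93) and Uchl1 (1.60), which encode a neuronal tubulin, an RNA-binding protein and a ubiquitin hydrolase. The triplet's differences lay within the range of this list. After quantile normalization 4 of the 10 were higher in SC and 6 in DRG (median 0.48), and before the authors' scaling also 4 and 6 (median 0.71). Among genes of large sensory neurons, which carry the most neurofilament, 4 of 6 measured were higher in DRG (median 0.82), with values of 1.74 for the neurotrophin receptor Ntrk3, 0.93 for the transcription factor Runx3, which was above background on no array, and 0.89 for the calcium buffer Calb1. After quantile normalization 4 passed toward DRG and 1 toward SC (median 0.34), and before the authors' scaling 3 and 2 (median 0.46). From the mean of each gene's probe sets, 1 passed toward DRG and 1 toward SC (median 0.04). Whether these neurons account for the triplet's difference was not tested.

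Ratios between members on the same array are free of any 1 factor for that array, apart from the added constant, but quantile normalization can change them. The log2 ratio of Nefm to Nefl was -0.31, -0.40 and -0.22 in DRG and -0.41, -0.23 and -0.28 in SC. Its arrays overlapped, and the mean ratios differed by 0.00 (exact two-sided permutation test over the 20 arrangements of the arrays, p = 1). With the second Nefl probe set, which was above background on all arrays, the difference was 0.23 and the tissues did not overlap, and after quantile normalization the first gave -0.14. The log2 ratio of Nefh to Nefm was -0.29, -0.49 and -0.43 in DRG and -0.70, -0.65 and -0.78 in SC, a difference of 0.30 with no overlap (exact permutation p = 0.1). Nefh to Nefl also differed by 0.30, and its arrays overlapped (exact permutation p = 0.2). That change was 0.53 with no overlap by the second Nefl probe set, and 0.09 after quantile normalization. With 3 arrays against 3 the smallest p this test can give is 0.1. Over the 9 ratios compared, the adjusted values were 1 for Nefm to Nefl, 0.225 for Nefh to Nefl and 0.129 for each of the other 7. The ratios of Vim to Gfap and of Synm to Des had no overlap (exact permutation p = 0.1 each). Their sizes are not given because Gfap in DRG and Des in both tissues were near background. For Vim to Gfap the separation follows from the single genes, which separated the tissues in opposite directions.

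The 2 partners of the triplet went in opposite directions. Ina had signals of 1216, 1292 and 1250 in DRG and 3279, 2644 and 2726 in SC (1418178_at). Each SC array was above the highest DRG array. The means were 1253 ± 37.9 and 2883 ± 346 (SD, n = 3 each), a log2 difference of -1.19 (SE 0.09, limma adjusted p = 7.46e-06), or 2.29-fold lower in DRG. Its other probe sets gave larger differences, -1.75 for 1448991_a_at (limma adjusted p = 8.49e-08) and -1.97 for 1448992_at (adjusted p = 2.26e-07), or 3.41-fold and 4.02-fold.

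Prph had signals of 7762, 8090 and 7431 in DRG and 481, 317 and 470 in SC (1422530_at). The SC arrays were low but above background on all 3. The means were 7761 ± 330 and 423 ± 91.7 (SD, n = 3 each), a log2 difference of 4.17 (SE 0.14, 95% interval 3.85 to 4.49, limma adjusted p = 5.52e-08), or 18.7-fold. Of the 45032 probe sets tested, 51 had a larger difference toward DRG, or 0.113%.

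The other Prph probe sets disagreed in size. Probe set 1420256_x_at had 428, 444 and 569 in DRG and 44.7, 46.5 and 143 in SC, where it was not above background, so its change was at least 3.39-fold (log2 difference 2.54, limma adjusted p = 0.000276). Probe sets 1449796_at and 1449797_x_at were not above background on any array, with differences of 0.28 (adjusted p = 0.537) and -0.10 (adjusted p = 0.826). When the 4 probe sets were averaged, the Prph difference was 1.72.

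Prph is known from small sensory neurons and from motor neurons, which send axons out of the cord. The measured small sensory genes had a median difference of 4.48, with P2rx3 at 6.70, Scn11a at 6.02 and Scn10a at 5.98, an ATP receptor and a pair of sodium channels, each above background on no SC array. Their changes were at least 27.0-fold, 37.1-fold and 11.3-fold. Of the 7 measured, 4 were above background on no SC array, with the median gene Trpv1 among them, so the size of this median is uncertain. Of 8 motor neuron genes, 6 were higher in SC, with Slc18a3, the vesicular acetylcholine transporter, at -3.29, Uts2 at -3.05 and Chodl at -3.03, while Isl2 was 3.16 higher in DRG. Of the 8, 7 were above background on no DRG array. Among them 2 were above it in neither tissue, including Mnx1, which was called higher in SC. As bounds, the changes were at least 3.40-fold for Slc18a3, 2.95-fold for Chodl and 1.18-fold for Uts2. The part of motor neurons in the Prph signal of SC was not tested.

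Set against each other on the same array, the ratio of Prph to Ina changed most among the neuronal pairs. On the log2 scale DRG arrays gave 2.66, 2.63 and 2.56 and SC arrays -2.73, -3.00 and -2.50. The tissues did not overlap, and its mean differed by 5.36 (41.0-fold, exact permutation p = 0.1). Prph was higher on every DRG array and Ina on every SC array. The separation and its p therefore follow from those differences and are no further result. The ratio of Ina to Nefl differed by -1.76 and that of Prph to Nefl by 3.60, both with no overlap (exact permutation p = 0.1 each). For Ina to Nefl the separation also follows from the single genes, because Nefl was higher on every DRG array. With the Prph probe set that was above background in both tissues, the other Ina and Nefl probe sets gave up to 6.14 for Prph to Ina and 3.83 for Prph to Nefl. The Ina to Nefl change ran from -2.54 to -1.53 over all combinations of probe sets. When the 4 Prph probe sets were averaged, dim ones included, Prph to Ina changed by 3.36 and Prph to Nefl by 1.27.

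**Figure D3:**
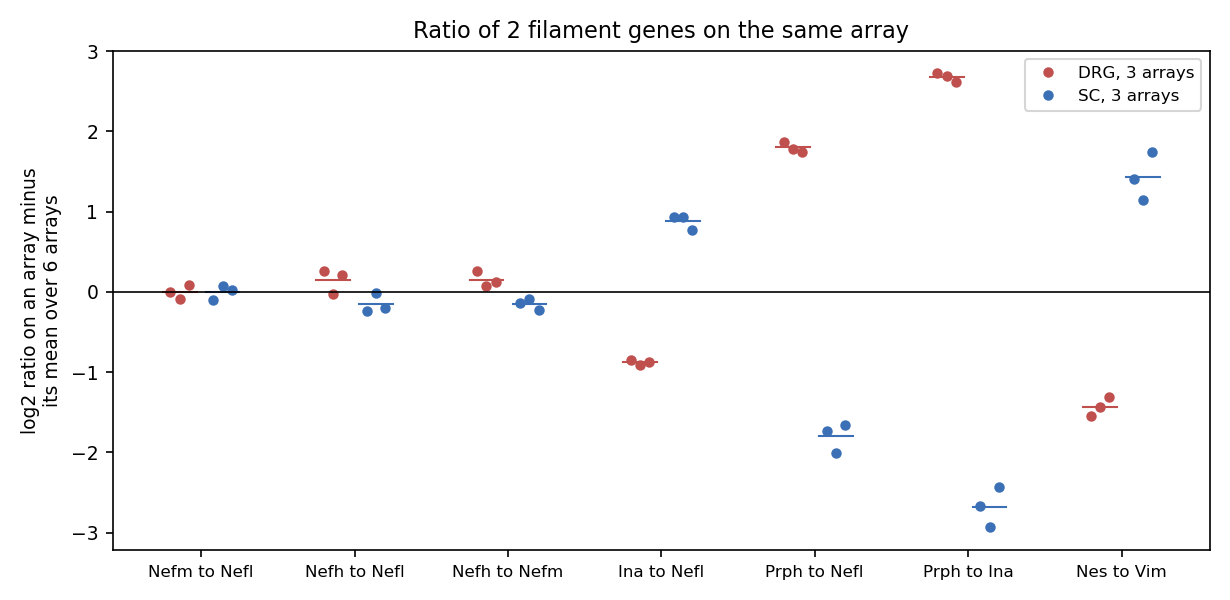
Log2 ratio of pairs of members on each of the 3 DRG and 3 SC arrays, minus the mean of the pair over the 6 arrays, for the 7 pairs without Gfap or Des; lines are group means. Prph to Ina separates the tissues by 5.36, whereas Nefm to Nefl, by the brightest probe sets, overlaps.

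Gfap, the astrocyte filament, was higher in SC. DRG arrays read 60.0, 107 and 105, and SC arrays read 7082, 5905 and 6716 (1426508_at). No DRG array was above background, and each SC array was. The means were 90.4 ± 26.4 and 6568 ± 602 (SD, n = 3 each), a log2 difference of -5.98 (SE 0.17, limma adjusted p = 2.45e-08). Because the DRG value is a bound, the change was at least 37.2-fold, taken against the background level of each array.

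The other Gfap probe sets showed the same direction. Probe set 1426509_s_at had 19.2, 36.4 and 54.2 in DRG and 4198, 3785 and 4092 in SC, at least 22.8-fold (log2 difference -6.32, limma adjusted p = 4.98e-08). Probe set 1440142_s_at had 12.7, 5.16 and 4.61 in DRG and 1175, 1015 and 910 in SC, at least 5.83-fold (log2 difference -5.49, adjusted p = 5.7e-08). For each of these, 1 DRG array stood at the deposited floor, so its signal is an upper bound.

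Other astrocyte genes moved the same way. All 8 on the list were higher in SC, with a median difference of -3.12 and values of -5.81 for the glutamate transporter Slc1a2, -4.36 for the water channel Aqp4 and -4.29 for Fgfr3. Their summed signal was 3566 to 3650 in DRG and 22761 to 25138 in SC, and 5 of the 8 were above background on no DRG array. Gfap is also known from satellite glia and from Schwann cells that do not myelinate, and 8 of 8 measured Schwann cell and satellite glia genes were higher in DRG, by a median of 1.83. Those genes summed to 26093 to 26358 in DRG, where Gfap was not above background. Much of that sum was Pmp22 (DRG mean 10916) and Ngfr (5530). The sum does not separate the glia known for Gfap from other Schwann cells, and their Gfap was not tested.

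Vim, a filament of mesenchymal and some glial cells, was higher in DRG. DRG arrays read 6280, 6309 and 6302, and SC arrays read 902, 834 and 827 (1450641_at). The DRG arrays were nearly equal and lay far above the SC arrays. The means were 6297 ± 14.9 and 854 ± 41.3 (SD, n = 3 each), a log2 difference of 2.86 (SE 0.07, 95% interval 2.71 to 3.01, limma adjusted p = 8.23e-09), or 7.38-fold. Its other probe sets, 1456292_a_at and 1438118_x_at, differed by 2.73 and 2.32 (adjusted p = 1.32e-07 and 1.21e-07). Vim was above background in both tissues.

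Vim is made by fibroblasts, endothelium and several glia. Fibroblast genes were higher in DRG in 8 of 9, by a median of 2.73, with Dcn at 3.45, Igfbp6 at 3.19 and Col3a1 at 3.00, and they summed to 17777 to 19632 in DRG and 3077 to 3384 in SC. Schwann cell and satellite glia genes summed to 26093 to 26358 in DRG and 4357 to 5144 in SC. They were led by the neurotrophin receptor Ngfr (5.73), the sodium channel Scn7a (4.18) and the fatty acid binding protein Fabp7 (2.84). Ngfr was above background on no SC array, so its change was at least 39.3-fold. Of 10 endothelial genes, 3 passed toward DRG and 2 toward SC (median 0.04), but 1 and 2 after quantile normalization (median -0.05) and 0 and 3 before the authors' scaling (median -0.30). The part of each cell type in the Vim difference was not tested.

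Synm, the subunit that links filaments to membranes, was higher in DRG. Its brightest probe set, 1457275_at, had 2501, 1226 and 1922 in DRG and 442, 453 and 428 in SC. Values spread widely among the DRG arrays, but none came down to the SC values. The log2 difference was 2.00 (SE 0.21, limma adjusted p = 6.16e-05), or 4.10-fold. Probe set 1455610_at was tighter, with 2120, 2021 and 2072 in DRG and 380, 375 and 342 in SC. There the difference was 2.45 (SE 0.07, adjusted p = 2.64e-08), or 5.67-fold.

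Nes, the filament of neural progenitors and of some vessel and muscle cells, did not pass the test by its brightest probe set. Probe set 1449022_at had 201, 219 and 239 in DRG and 228, 172 and 266 in SC, and the tissues overlapped. The log2 difference was 0.00 (SE 0.16, 95% interval -0.36 to 0.37, limma adjusted p = 0.995), and signals were near background, above it on 2 DRG and 3 SC arrays. A second probe set, 1418289_at, read 101, 148 and 133 in DRG, where it was not above background, and 183, 228 and 245 in SC. It was higher in SC by at least 1.23-fold (log2 difference -0.71, adjusted p = 0.0115), so the probe sets disagree. The third, 1453997_a_at, was not above background on any array.

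Ependymal cells, which line the central canal and can make nestin, had 2 of 9 genes higher in SC, but 5 of the 9 were above background in neither tissue. The 2 called were Tmem212, above background on no array, and Ccdc153, above it on 1 SC array. The list summed to 578 to 804 in DRG and 914 to 1025 in SC. By the brightest probe sets, the ratio of Nes to Vim on the same array was lower in DRG by 2.86 on the log2 scale. The tissues did not overlap (exact permutation p = 0.1). That difference has the size of the Vim difference alone. Nes was near background, and over all combinations of probe sets the change ran from -3.57 to -1.94.

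Des, the muscle filament, was near background. Probe set 1426732_at had 115, 110 and 102 in DRG and 96.1, 140 and 136 in SC, and was above background on 0 DRG arrays and 1 SC array. The log2 difference was -0.15 (SE 0.19, 95% interval -0.58 to 0.28, limma adjusted p = 0.624). Probe set 1426731_at read 22.0, 47.9 and 42.6 in DRG and 16.5, 19.0 and 98.2 in SC (log2 difference 0.04, adjusted p = 0.963). The tissues overlapped in both.

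Skeletal muscle genes varied between arrays within a tissue. The 9 genes summed to 573, 775 and 2397 on the DRG arrays, and to 740, 2436 and 2934 on the SC arrays, and 0 of 9 were called in either direction. Des was 140 and 136 on the 2 SC arrays with the higher sum and 96.1 on the other, and 102 on the DRG array with the highest sum. Smooth muscle and pericyte genes summed to 4630 to 4822 in DRG and 3245 to 3355 in SC. Much of each sum was the single gene Rgs5, with means of 2876 in DRG and 1668 in SC. Of the 9 genes on this list, 4 passed toward DRG and 2 toward SC, with a median difference of -0.07. Quantile normalization left 4 and 2 (median -0.04), and signals before the authors' scaling gave 4 and 3 (median -0.35).

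**Figure D4:**
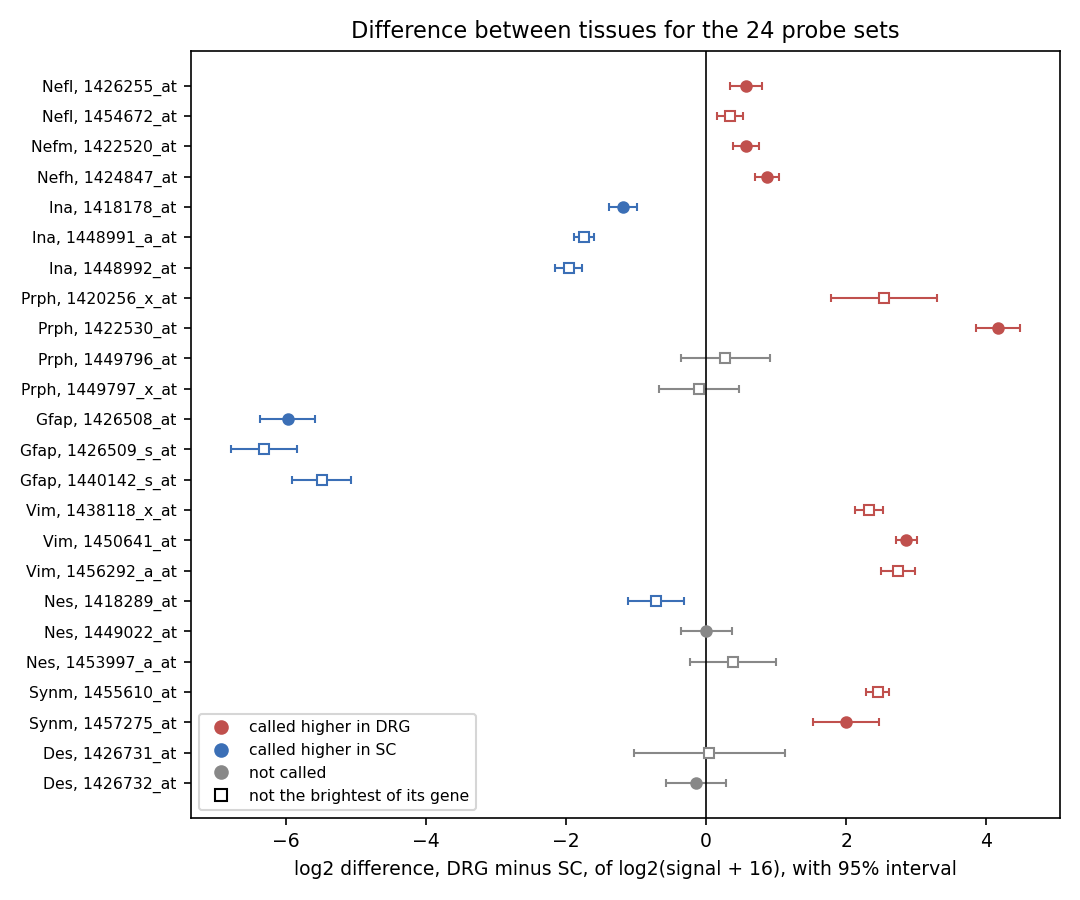
Log2 difference DRG minus SC with 95% interval for each of the 24 probe sets, grouped by gene, with filled circles for the brightest probe set and red, blue and grey for higher in DRG, higher in SC and not called. The probe sets of Gfap, Ina, Vim and Synm keep 1 direction each, from -6.32 to 2.86, whereas those of Prph range from -0.10 to 4.17.

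Proteins that act on intermediate filaments were read beside the subunits. Of 9 linkers between filaments and other structures, 3 passed the test toward DRG and 3 toward SC (median difference 0.48). The large plakins Dst (1.16) and Plec (1.00) and the smaller partner Sync (0.60) were higher in DRG. Sync was near background, above it on 2 DRG arrays and 1 SC array. Macf1, a further plakin (-0.45), Mtm1, a phosphoinositide phosphatase that binds desmin (-0.38), and Evpl, envoplakin (-1.05), were higher in SC, and Evpl was above background on no DRG array. Among the linkers, 2 passed toward DRG and 3 toward SC both after quantile normalization (median 0.34) and before the authors' scaling (median 0.14).

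Of 6 chaperones known to hold filament proteins soluble, 5 passed toward DRG and 1 toward SC (median 1.50). The co-chaperone Bag3 (2.78) and its partner, the small heat shock protein Hspb8 (2.44), were joined by Hspb1 (2.40), a small heat shock protein of sensory and motor neurons. Cryab, the alpha-B crystallin that astrocytes and oligodendrocytes also make, was higher in SC (-0.93). Each of these 6 had no overlap between tissues. After quantile normalization 4 passed toward DRG and 1 toward SC (median 1.02), and before the authors' scaling 3 and 1 (median 1.13).

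Transport motors of neurofilaments were higher in DRG in 6 of 6 genes (median 0.61), led by the dynactin subunit Dctn1 (1.19), the dynein heavy chain Dync1h1 (0.96) and the myosin Myo5a (0.70). After quantile normalization 2 passed toward DRG and 1 toward SC (median 0.03), and before the authors' scaling 3 toward DRG and 0 toward SC. Filament kinases had 6 of 9 measured genes higher in DRG and 0 in SC (median 0.34), among them Csnk1d (1.20), Gsk3b (0.84) and the Cdk5 activator Cdk5r2 (0.63). After quantile normalization 1 kinase passed toward DRG and 3 toward SC, and before the authors' scaling 2 and 2. Of 6 measured turnover genes, 4 passed toward DRG and 0 toward SC, with the calpains Capn1 (1.85) and Capn2 (1.57) leading and the ubiquitin ligase Stub1 at 0.34, and after quantile normalization 2 passed toward DRG and 3 toward SC, and before the authors' scaling 2 and 1.

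Of 9 other intermediate filament genes, 1 was called, Lmna, the nuclear lamin A/C gene, which was 1.40 higher in DRG. The keratin genes Krt7, Krt8, Krt18 and Krt19 were not above background on any array, and neither was the lens filament gene Bfsp1.

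**Figure D5:**
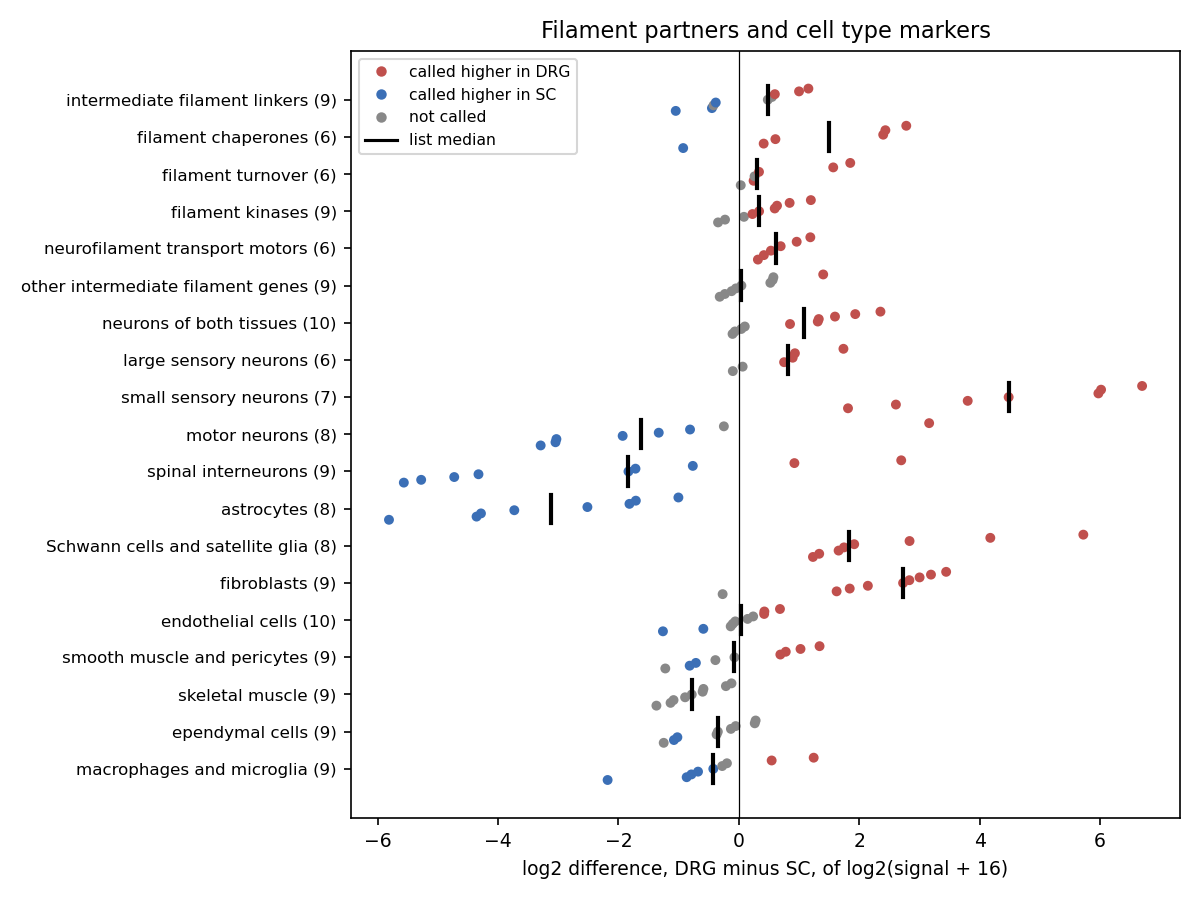
Log2 difference DRG minus SC of each measured gene in the lists of filament partners and cell type markers, coloured by its call (red for higher in DRG, blue for higher in SC, grey for not called), with a bar at each list's median. Small sensory genes centre on 4.48, astrocyte genes on -3.12, and transport motors on 0.61, against 0.18 over all genes.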

How the data were processed

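RNA levels were measured on 3 arrays per tissue. MAS5, in a version not given, made the signals per the submitters' processing notes. The deposited table held linear ratios, and their making is not given in the sources used here. Read from the values, each was a signal divided by an array factor and by the probe set's median: 91.8% of probe sets had a median of 1, and 8.21% lay on a common grid. Signals were recovered for 45096 of 45101 probe sets through MAS5's steps of 0.1, which replaces the unit assumed when the tests were set, and 65 values at the floor of 0.01 are upper bounds. The array factors ran from 84.5 to 89.5 in DRG and from 110.5 to 112.6 in SC. Recovery was tested on simulated data.

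The difference was tested with limma 3.58.1 in R 4.3.3 (lmFit, eBayes with an intensity trend) on log2(signal + 16), in a fit without the replicate number. Each gene was represented by its brightest probe set. The rest was run in Python 3.11.15 (pandas 2.3.3, numpy 2.4.6, matplotlib 3.10.9, numba 0.67.0). The platform annotation names 1 gene for 34958 probe sets and several for 932, and 34754 probe sets matched RefSeq by Entrez identifier. Folds are given as bounds ("at least") where a tissue was not above background on any array, from the mean of normalized log2 values. Log2 differences are printed as estimated, also for such genes, and there their size is uncertain. Named list genes are the 3 called genes per direction with the largest difference. Members and lists were chosen with earlier results of these data known. Some genes of the lists are not reported here. Alternatives were quantile normalization, signals before the authors' scaling, pseudocounts of 1 and 64, the log2 of the deposited ratio, filters, other choices of probe sets, no trend, a replicate block and each array left out.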

Additional observations from a re-analysis of the deposited data

How the results depend on the processing

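Over 18 settings, the count of members higher in SC was 2 in each, and that of members higher in DRG was 6 except under quantile normalization (5, without Nefm) and before the authors' scaling (4, without Nefl and Nefm). Gfap, Ina, Nefh, Prph, Synm and Vim were called in all 18, Nefl in 17, Nefm in 16, and Nes and Des in 0. Member probe sets higher in SC numbered 4 instead of 7 when probe sets of several transcripts were left out. Leaving out each array in turn gave 6 to 7 of them, 11 higher in DRG, and 12600 to 14264 probe sets called, against 14612 with all arrays. The Nefm to Nefl within-array log2 ratio change has no settled direction: it was 0.11 from the mean of each gene's probe sets, and -0.0545 to 0.0431 when each array was left out, with positive values without DRG replicate 2 (0.0431), SC replicate 2 (0.0365) or SC replicate 3 (0.0107). For the lists, counts called toward DRG moved by over 1.5 times in 30 combinations of list and setting and kept within it in 293, and likewise toward SC. Filament kinases called higher in DRG fell from 6 to 3 with the deposited ratio, no trend or the mean of probe sets, and turnover genes from 4 to 2 with the deposited ratio or no trend. Of the values of the 9 within-array ratios, 10 moved beyond 1 SD and 103 did not, beside those that turned. Under quantile normalization Nefm to Nefl became -0.14, Nefh to Nefl 0.09, Ina to Nefl -1.99, Nes to Vim -2.49 and Synm to Des 1.74.

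With the replicate block, the number of probe sets called was 14155, and the members' calls did not change. Same-numbered arrays did not deviate together (correlations -0.01, -0.02 and 0.00, and 1 of 6 arrays correlated best with its own number), so the numbers were not taken as pairs. Within-array ratios were not run under filters, 1 row per gene, no trend or the block, and probe set counts not under 1 row per gene or the mean of probe sets. Nes, Des and the dim Prph probe sets lie near background, which limits what their differences show.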

Other observations

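Genes with the profile most like a member were searched among 8999 genes, by the root mean square distance of log2 values over the 6 arrays after each gene's mean was removed, which in 2 tissues mostly compares the size of the tissue difference. The 5 nearest to Prph were Runx1 (0.106), Anxa2 (0.164), Bcam (0.166), S100a6 (0.169) and S1pr3 (0.171). Of these, Runx1 and S1pr3 had mean SC signals of 21.2 and 122, under or near background. Those nearest to Nefh were Xbp1, Nuak1, Sdf2, Sec23b and Larp4b, with Xbp1 at 0.017 and a difference of 0.88 between tissues. Nearest to Gfap were the glycine transporter Slc6a5 (0.222), the glutamate transporter Slc1a2 (0.227), the myelin gene Mog (0.242), the chloride transporter Slc12a5 (0.250) and Lamp5 (0.272). Their log2 differences ran from -6.14 to -5.57. Like Gfap, these genes had mean DRG signals below background, from 6.02 for Mog to 100 for Slc1a2. The sizes of their differences and distances therefore depend on dim DRG values and on the added constant. The DRG arrays of Mog all held the same value, that of the deposited floor, so 6.02 is an upper bound.

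Macrophage and microglia genes, which the comparison above did not use, had 2 of 9 higher in DRG and 5 in SC (median -0.42). Among genes of spinal interneurons, 7 of 9 measured were higher in SC (median -1.83), and the other 2, Tlx3 (2.70) and Slc17a6 (0.92), were higher in DRG.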
